A study of Mus musculus with 12 samples.

Results

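The 10 genes described here encode proteins of the early wound bed. Fn1, Tnc, Postn, Thbs1 and Sparc encode secreted proteins of the provisional and matricellular matrix. Cyr61 and Ctgf, older names of Ccn1 and Ccn2, encode matricellular signalling proteins of the CCN family. Lox encodes a collagen crosslinking enzyme, and Acta2 and Tagln encode contractile proteins of smooth muscle cells and myofibroblasts. The genes were chosen by symbol, with earlier results of these data known, so counts of them called are a description. All 10 were found among the 29956 named genes of the table and were among the 18218 genes that passed the filter on low counts.

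RNA of wounded skin was sequenced in 12 libraries, 3 groups of 4, from tissue taken on day 3 after punch wounds through the full thickness of the back skin. All mice carried the genotype B6.BKS(D)-Leprdb/db, a mutation of the leptin receptor that leaves mice obese and diabetic. The wounds were given a bacterium in phosphate-buffered saline (PBS), which was the Gram-negative species Alcaligenes faecalis or the Gram-positive skin pathogen Staphylococcus aureus, or were given PBS with glycerol as the vehicle control. The 3 groups therefore share the diabetic genotype, the wound and the day, and neither unwounded nor non-diabetic skin is part of the comparison. Age and sex of the mice were not given in the sources used here. Libraries held 38.4 to 71.3 M (mega) estimated counts, and the scarcest member still had 1470 counts in its lowest library (Tagln). Levels are given as CPM (counts per M of the library size after TMM scaling). They are not divided by gene length, so they compare libraries for 1 gene and not genes with each other.

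As background, a clot of fibrin and plasma fibronectin fills a fresh wound and serves as the provisional matrix on which cells migrate. Fibroblasts and macrophages then add cell-made fibronectin and matricellular proteins, which alter how cells attach and respond to growth factors rather than bearing load. Later, fibroblasts that take up contractile proteins (myofibroblasts) pull the wound edges together, while lysyl oxidase crosslinks the new collagen. In diabetic db/db mice this granulation tissue forms slowly.

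Whole skin holds many cell types, so for every value below fewer cells of a type and less RNA per cell cannot be told apart. The tissue carried the markers of skin in every library, with Krt14 (a keratin of basal epidermis) at 272 to 1439 CPM and Col1a1 (the main dermal collagen) at 5211 to 11067 CPM. Vehicle replicate 3 stood apart. The summed level of 7 adipocyte markers was 6811 CPM in it and 1674 to 2192 CPM in the other vehicle libraries, and that of 7 neutrophil markers was 718 CPM against 2247 to 8809 CPM. It was the lowest of all 12 libraries for 5 members (Fn1, Tnc, Thbs1, Lox and Cyr61) and the highest for Tagln and Sparc. The members' values against vehicle are therefore given with and without this library, and for the other gene lists it is named where leaving it out ended a call.

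Promoter sequences from RefSeq (GRCm38.p6) were at hand for 5 of the 10 members. Shown are the 250 bases before 1 listed start of each of 4 genes. Tnc and Cyr61 differed most clearly between the bacteria, and Acta2 and Postn did not pass the test in any comparison. Tnc and Postn have 2 listed starts each. For them the window is that of the most downstream start whose 250 bases hold no other listed start. Capitals mark the words TATAAA and GGAATG on either strand (the latter reads CATTCC on the other strand), the first a core promoter element and the second the word bound by TEAD factors, the partners of the mechanosensitive co-activator YAP. All run 5′ to 3′ on the strand of the gene.
Tnc, chr4:64047016-64047265, minus strand: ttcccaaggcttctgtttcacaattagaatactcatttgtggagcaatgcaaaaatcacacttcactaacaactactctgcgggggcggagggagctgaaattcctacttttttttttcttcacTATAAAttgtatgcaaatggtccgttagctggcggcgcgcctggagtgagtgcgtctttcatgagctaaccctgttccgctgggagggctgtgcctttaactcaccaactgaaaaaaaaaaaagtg
Cyr61 (listed as Ccn1), chr3:145649986-145650235, minus strand: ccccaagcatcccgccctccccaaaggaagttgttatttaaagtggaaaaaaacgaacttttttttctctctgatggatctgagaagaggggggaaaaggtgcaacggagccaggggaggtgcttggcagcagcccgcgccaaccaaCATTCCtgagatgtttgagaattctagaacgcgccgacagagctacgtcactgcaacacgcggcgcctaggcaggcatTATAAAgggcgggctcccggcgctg
Acta2, chr19:34255374-34255623, minus strand: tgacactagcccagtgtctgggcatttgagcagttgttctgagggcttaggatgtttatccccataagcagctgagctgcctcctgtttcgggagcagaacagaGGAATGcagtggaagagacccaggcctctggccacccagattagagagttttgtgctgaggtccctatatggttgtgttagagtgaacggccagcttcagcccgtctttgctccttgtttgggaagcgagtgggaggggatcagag
Postn, chr3:54360857-54361106, plus strand: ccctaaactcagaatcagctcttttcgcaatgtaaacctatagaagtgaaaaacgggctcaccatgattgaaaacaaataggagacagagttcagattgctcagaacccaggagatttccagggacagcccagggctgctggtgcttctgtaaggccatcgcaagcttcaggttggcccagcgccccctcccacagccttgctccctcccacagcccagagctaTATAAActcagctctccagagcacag
GGAATG stood 103 to 98 bases before the start of Cyr61, on the opposite strand, and 146 to 141 bases before that of Acta2. It was not found in these windows of Tnc and Postn, and 12.6% of all 32851 listed promoters hold it on either strand within 250 bases. TATAAA stood 25 to 20 bases before the start of Cyr61, 26 to 21 before that of Postn and 126 to 121 before that of Tnc. The same word of Tnc lies 205 to 200 bases before its other listed start. Of all promoters 12.4% hold TATAAA. The CArG box, the site of serum response factor, was found by its strict consensus in none of these windows and in 1.5% of all promoters. With 1 letter off that consensus allowed, it stood 84 to 75 and 34 to 25 bases before the start of Acta2 and in none of the other 3 windows, and 17.5% of all promoters hold such a near match. The AP-1 word TGANTCA was in none of the 4 either and in 6.7% of all promoters. CAGAC is a word bound by SMAD factors downstream of TGF-beta. It stood 235 to 231 bases before the start of Acta2 on the opposite strand and in no other of the 4 windows shown. The windows of the other listed starts of Tnc and Postn also hold it. There it stood 70 to 66 bases before the start of Tnc, on the opposite strand, and 191 to 187 before that of Postn. Of all promoters 42.2% hold CAGAC. All words were searched on both strands, and no 2 of the matches overlapped in the 4 windows shown. These are matches of letters. The 2 promoters with GGAATG belong to Cyr61, which rose with S. aureus relative to A. faecalis, and to Acta2, which did not pass the test.

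**Figure D1:**
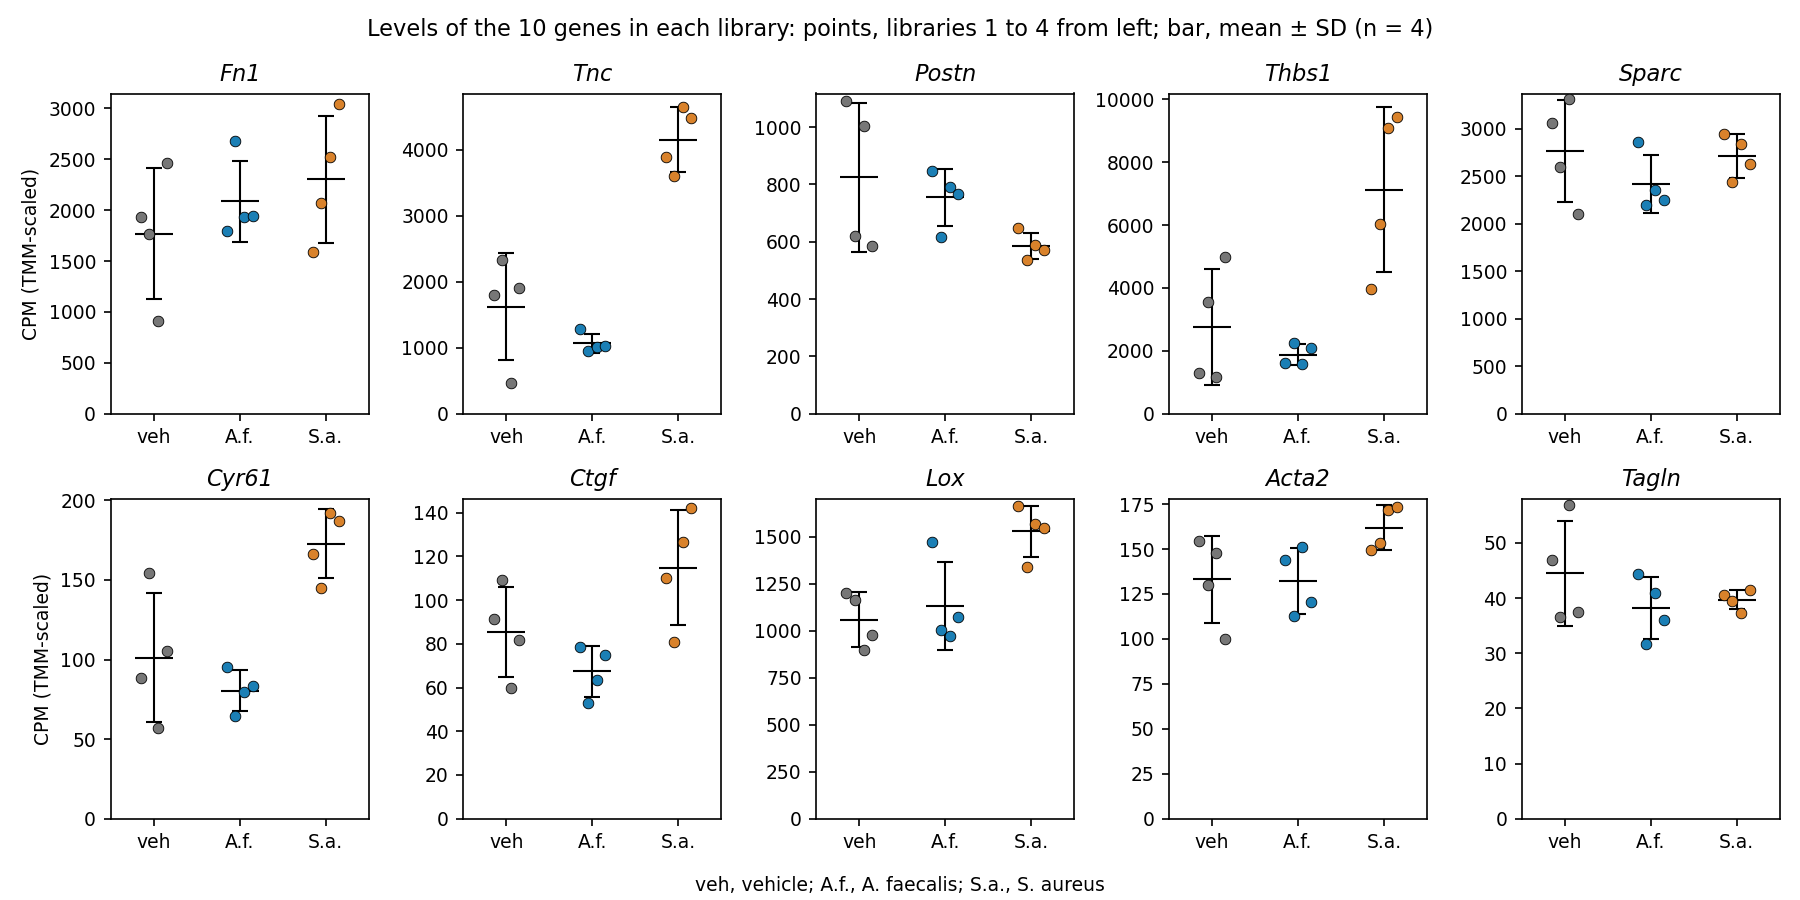
Levels (CPM, linear axes from 0) of the 10 genes in each library, with points for libraries 1 to 4 of a group from left to right and bars for the mean ± SD (n = 4). The S. aureus points of Tnc lie at 3603 to 4642 CPM, above all 8 other libraries, while those of Sparc and Tagln lie within the range of the vehicle points.

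The comparison of the bacteria with each other gave the clearest differences. Tnc, Thbs1, Cyr61 and Ctgf rose with S. aureus relative to A. faecalis, and the contractile genes Acta2 and Tagln, as well as Fn1, Sparc, Lox and Postn, did not pass the test. Adjusted p-values here and below were computed by the quasi-likelihood test of edgeR and adjusted by Benjamini-Hochberg over all 18218 genes, with 0.05 as the threshold. Of the 10 members 4 were called higher and 0 lower, where 7.62% of all genes tested were called higher and 5.06% lower (12.7% in all). An unadjusted p under 0.05 was found for 5 members, those 4 and Lox, and for 28.2% of all genes. The same 4 genes had S. aureus libraries that all lay above the A. faecalis libraries, where 11.8% of all genes did and 11.5% had them all below. The median log2 fold change of the members was 0.36, and that of all genes was -0.02.

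Tnc encodes tenascin-C, a large matricellular protein that appears at wound edges and in granulation tissue and is scarce in resting skin. Its level was 3884, 3603, 4642 and 4476 CPM in S. aureus libraries 1 to 4, 1277, 944, 1014 and 1023 CPM with A. faecalis, and 1798, 2323, 459 and 1905 CPM with vehicle. Every S. aureus library was above every other library, and the A. faecalis values lay within the range of the vehicle values. Between the bacteria the log2 fold change was 1.96 (SE 0.369, 95% interval 1.16 to 2.77, adjusted p = 0.00628), a 3.90-fold difference. It passed the threshold in all 12 fits that left out 1 library (adjusted p up to 0.025).

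Thbs1 encodes thrombospondin-1, a matricellular protein released by platelets and made by several cell types, which can activate latent TGF-beta. It was at 3953, 6019, 9097 and 9436 CPM with S. aureus, at 1613, 2255, 1572 and 2078 CPM with A. faecalis, and at 1295, 3548, 1168 and 4996 CPM with vehicle. The S. aureus libraries did not overlap those of A. faecalis, but the lowest of them lay below vehicle replicate 4. The difference between the bacteria was 1.92 on the log2 scale (SE 0.452, interval 0.94 to 2.91, adjusted p = 0.0177). The call was lost without A. faecalis replicate 3 (adjusted p = 0.0576) or S. aureus replicate 3 (0.0507).

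The CCN genes followed. Cyr61, whose protein binds integrins and whose gene is a standard target of YAP, was at 166, 145, 192 and 187 CPM with S. aureus, at 95.2, 64.4, 79.3 and 83.1 CPM with A. faecalis, and at 88.1, 155, 57.2 and 105 CPM with vehicle. The difference between the bacteria was 1.10 (SE 0.244, interval 0.57 to 1.63, adjusted p = 0.0136), called in all 12 fits without 1 library. Ctgf encodes connective tissue growth factor, a mediator of fibroblast activation downstream of TGF-beta and YAP. It was at 110, 80.7, 127 and 142 CPM with S. aureus, at 78.5, 53.0, 63.5 and 74.9 CPM with A. faecalis, and at 91.4, 109, 59.6 and 81.6 CPM with vehicle. The lowest S. aureus library lay just above the highest A. faecalis library. The log2 fold change was 0.77 (SE 0.207, interval 0.32 to 1.22, adjusted p = 0.0322). Ctgf kept its call in 6 of the 12 fits without 1 library and lost it when A. faecalis 2, 3 or 4 or S. aureus 1, 3 or 4 was left out (adjusted p at most 0.0926).

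Lox encodes lysyl oxidase, which starts the crosslinking of collagen and elastin. It was at 1662, 1340, 1568 and 1543 CPM with S. aureus, at 1473, 1005, 971 and 1072 CPM with A. faecalis, and at 1199, 1163, 896 and 977 CPM with vehicle. S. aureus libraries lay above all vehicle libraries, and A. faecalis replicate 1 lay within the S. aureus range. Between the bacteria the log2 fold change was 0.44 (SE 0.149, interval 0.11 to 0.76) with an adjusted p of 0.0764. Without A. faecalis replicate 1 it was 0.60 and passed (adjusted p = 0.0154). DESeq2 also called Lox (adjusted p = 0.0276).

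Postn was the 1 member with a lower mean with S. aureus than with A. faecalis. It encodes periostin, a matricellular protein of fibroblasts that supports collagen assembly and myofibroblast formation. Its level was 647, 536, 589 and 570 CPM with S. aureus, 847, 616, 791 and 767 CPM with A. faecalis, and 1090, 621, 1003 and 584 CPM with vehicle. The S. aureus values overlapped both other groups at their lower ends. The log2 fold change between the bacteria was -0.37 (SE 0.194, interval -0.79 to 0.06, adjusted p = 0.241). A fit of these 2 groups alone gave -0.37 with an adjusted p of 0.0491.

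The contractile genes differed by less. Acta2, smooth muscle actin alpha, was at 149 to 174 CPM with S. aureus (162 ± 12.5, SD, n = 4), at 113 to 151 CPM with A. faecalis (132 ± 18.4) and at 100.0 to 155 CPM with vehicle (133 ± 24.4). Its log2 fold change between the bacteria was 0.29 (interval -0.01 to 0.60, adjusted p = 0.19). Tagln, the actin-binding protein transgelin, was at 39.7 ± 1.77, 38.2 ± 5.60 and 44.5 ± 9.45 CPM with S. aureus, A. faecalis and vehicle, and its log2 fold change between the bacteria was 0.06 (interval -0.25 to 0.37, adjusted p = 0.833). The intervals leave out a 2-fold difference of either gene between the bacteria in either direction. Reads of near-identical actin genes can be divided wrongly, which makes Acta2 uncertain. Its paralogs Acta1, of skeletal muscle, and Actg2, of enteric smooth muscle, were at 354 to 530 CPM and 3.16 to 6.48 CPM. The span of Tagln overlaps that of Pcsk7 in RefSeq, and although the library kit keeps strand, no source used here says whether counting used it. The same limit holds for Tnc, Postn and Ctgf, whose spans overlap the noncoding genes 8030451A03Rik, Gm31095 and Gm15270.

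Fn1 and Sparc also failed the test between the bacteria. Fn1 encodes fibronectin, the scaffold of the provisional matrix, and was at 1586, 2066, 2520 and 3040 CPM with S. aureus, at 1793, 2676, 1932 and 1946 CPM with A. faecalis, and at 1935, 1762, 915 and 2468 CPM with vehicle. The 3 groups overlapped, and the log2 fold change between the bacteria was 0.14 (interval -0.46 to 0.75, adjusted p = 0.779). Sparc encodes a collagen-binding matricellular protein of fibroblasts and endothelium. It averaged 2712 ± 228 CPM in S. aureus wounds, 2417 ± 303 CPM in A. faecalis wounds and 2764 ± 535 CPM in vehicle wounds (SD, n = 4). The log2 fold change between the bacteria was 0.17 (interval -0.16 to 0.49, adjusted p = 0.499).

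**Figure D2:**
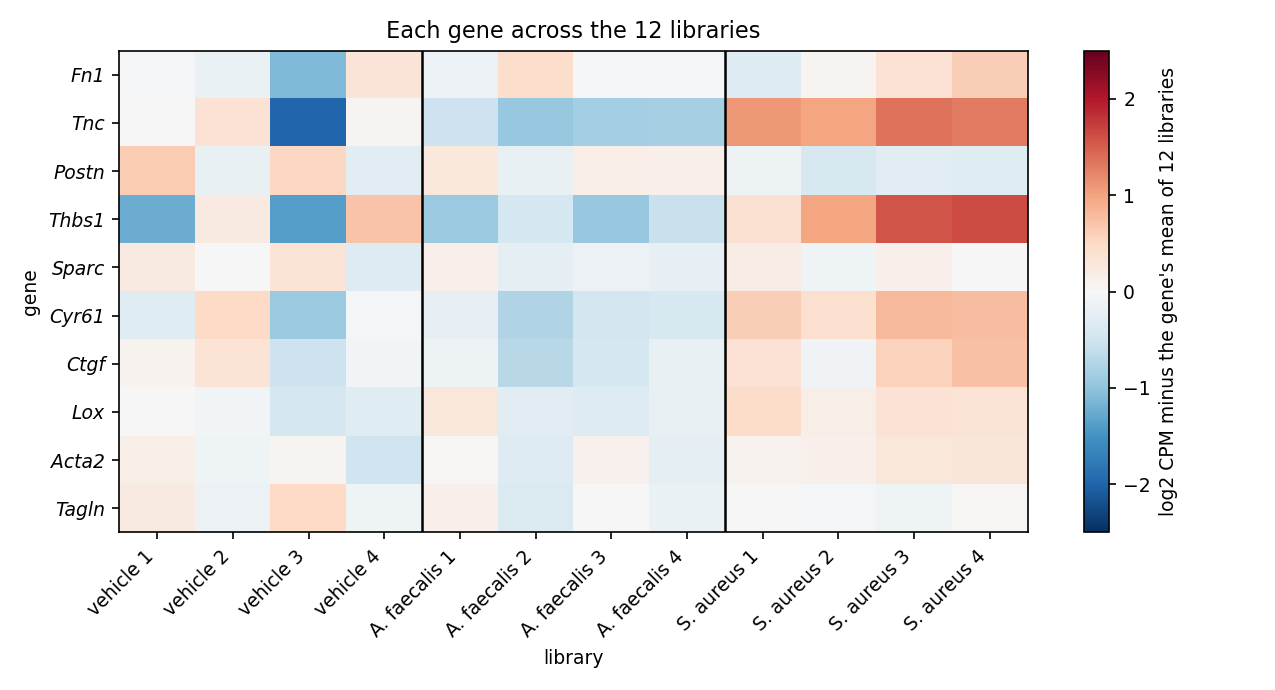
Log2 CPM of each gene (rows) in each library (columns), after subtracting the gene's mean of the 12 libraries, on a colour scale from -2.5 to 2.5. Tnc and Thbs1 are above their means in all 4 S. aureus libraries and below them in all 4 A. faecalis libraries, vehicle replicate 3 has the lowest value of the row for Fn1, Tnc, Thbs1, Lox and Cyr61, and Sparc, Acta2 and Tagln stay near 0.

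The second comparison set S. aureus against vehicle. Tnc rose, and no other member passed the test. Its log2 fold change was 1.36 (SE 0.362, interval 0.57 to 2.15, adjusted p = 0.0461), a 2.56-fold difference. Of the 10 members 1 was called higher and 0 lower, where 3.87% of all genes tested were called higher and 2.97% lower (6.84% in all). An unadjusted p under 0.05 was found for 5 members (Tnc, Thbs1, Lox, Cyr61 and Postn) and for 27% of all genes. Tnc and Lox had S. aureus libraries that all lay above vehicle, as had 7.56% of all genes, and no member lay wholly below, as 7.57% of all genes did. The call of Tnc was fragile: it held in 2 of 12 fits without 1 library, those without vehicle replicate 2 (adjusted p = 0.041) or vehicle replicate 3 (0.0092). It was lost without any 1 of the other 10, vehicle 1 and 4 and all A. faecalis and S. aureus replicates (adjusted p from 0.0501 to 0.119). It was also lost with no filter on low counts (adjusted p = 0.0598) and with only these 2 groups fitted (0.113), while DESeq2 called it (0.00222). Without vehicle replicate 3, which had the least Tnc, the log2 fold change fell to 1.07 while the adjusted p became smaller.

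Several members lay close to the threshold against vehicle. Thbs1 had a log2 fold change of 1.37 (SE 0.444, interval 0.40 to 2.34, adjusted p = 0.0778), Cyr61 one of 0.77 (SE 0.242, interval 0.24 to 1.30, adjusted p = 0.0721) and Lox one of 0.53 (SE 0.149, interval 0.20 to 0.86, adjusted p = 0.0537). Each was called by DESeq2 (adjusted p = 0.0129, 0.0184 and 0.00631), and each passed in 1 of the 12 edgeR fits without 1 library. For Thbs1 that was the fit without vehicle replicate 4 (adjusted p = 0.0283), for Cyr61 without vehicle replicate 2 (0.0202) and for Lox without A. faecalis replicate 1 (0.0264). Without vehicle replicate 3 their log2 fold changes were 1.14, 0.59 and 0.47, and none passed. Postn was lower by point estimate (log2 fold change -0.49, interval -0.92 to -0.07, adjusted p = 0.13; -0.37 without vehicle replicate 3). For Ctgf the value was 0.43 (adjusted p = 0.206), for Acta2 0.28 (0.213), for Fn1 0.38 (0.41), for Tagln -0.16 (0.496) and for Sparc -0.03 (0.925). Without vehicle replicate 3 these values were 0.31 for Ctgf, 0.35 for Acta2, 0.18 for Fn1, -0.01 for Tagln and 0.09 for Sparc, and none of the 5 passed.

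The third comparison, A. faecalis against vehicle, gave no member past the threshold. EdgeR called 0 of 10 members, 0 had an unadjusted p under 0.05, and DESeq2 also called 0, where edgeR called 0.011% of all genes (0.00549% higher and 0.00549% lower) and 7.68% had an unadjusted p under 0.05. No member had groups that did not overlap, where 1.49% of all genes lay wholly higher and 2.56% wholly lower, and 8 of 10 log2 fold changes were below 0 (median -0.21, all genes -0.03). The lowest were those of Tnc at -0.61 (interval -1.39 to 0.17, adjusted p = 0.694) and Thbs1 at -0.55 (interval -1.51 to 0.41, adjusted p = 0.759). Ctgf was at -0.34 (adjusted p = 0.698), Cyr61 at -0.33 (0.739), Tagln at -0.22 (0.718), Sparc at -0.19 (0.748), Postn at -0.13 (0.885) and Acta2 at -0.01 (0.992). Fn1 and Lox were at 0.24 and 0.09 (0.837 and 0.888). The intervals of Tnc and Thbs1 allow both a 2-fold lower level and no difference.

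The width of those intervals came with an uneven vehicle group. The highest vehicle library had 5.06 times the Tnc of the lowest, and 4.28 times the Thbs1, where the A. faecalis libraries differed by 1.35 and 1.43 times. Without vehicle replicate 3 the vehicle range of Tnc narrowed to 1.29 times. The A. faecalis libraries (944 to 1277 CPM) then all lay below the remaining vehicle libraries (1798 to 2323 CPM), with a log2 fold change of -0.90 and an adjusted p of 0.116. That separation follows from leaving out the only vehicle library below them (459 CPM). The share of all genes separated in this way was not computed. Thbs1 still differed by 3.86 times among the remaining vehicle libraries, and its log2 fold change was then -0.79. Without the same library Cyr61 was at -0.51, Ctgf at -0.46, Sparc at -0.08, Tagln at -0.06, Acta2 at 0.06, Lox at 0.04 and Fn1 at 0.03, and Postn was at -0.0043. None of the 10 passed. The comparisons of each bacterium with vehicle share the vehicle libraries, so their values are set side by side here and not counted as separate evidence.

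**Figure D3:**
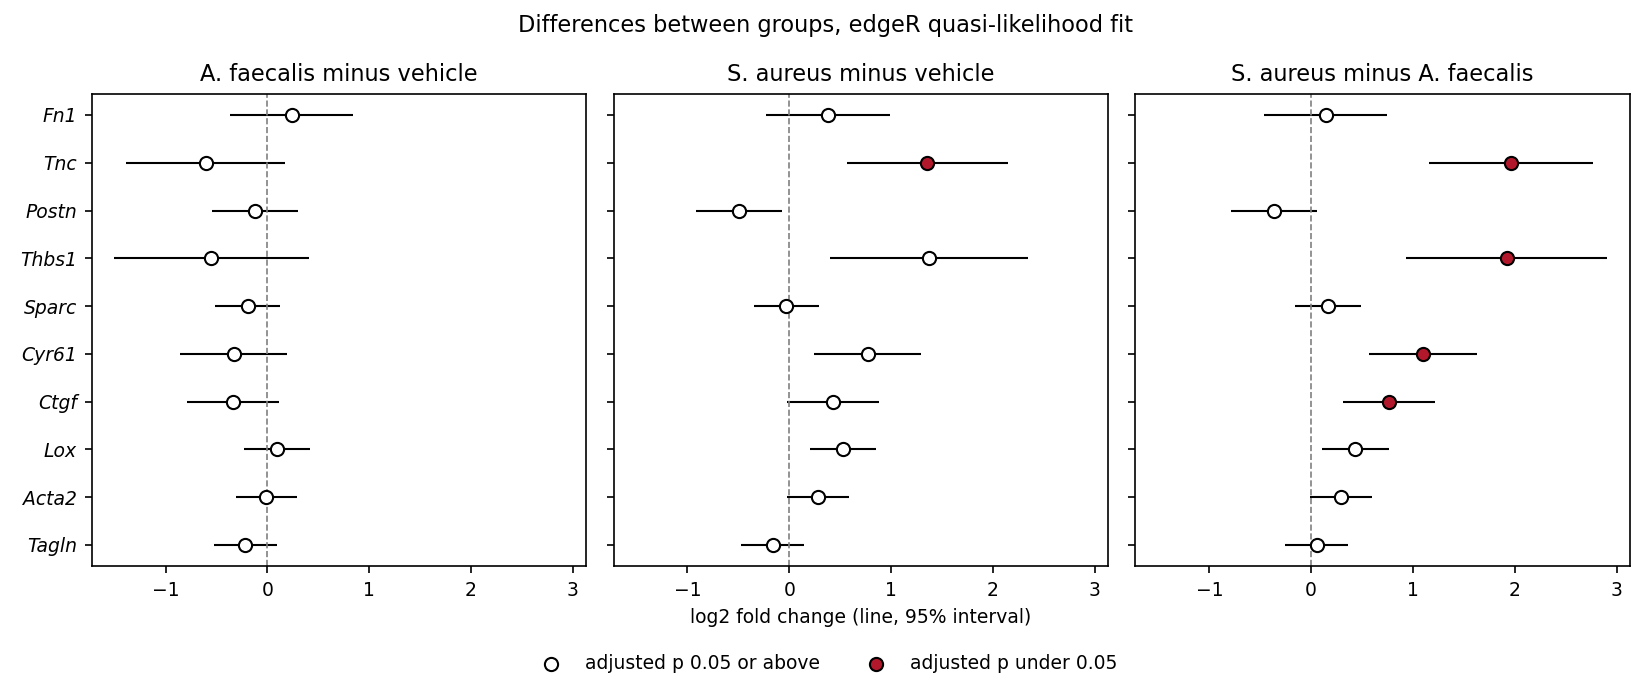
Log2 fold changes of the 10 genes in the 3 comparisons, with lines for 95% intervals and filled points for an adjusted p under 0.05. Filled points are Tnc with S. aureus against vehicle, and Tnc, Thbs1, Cyr61 and Ctgf with S. aureus against A. faecalis.

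Ratios of 2 members within a library do not depend on how libraries are scaled, and 5 were computed as a description, chosen after the values were seen. In 2 of them the S. aureus libraries lay above all others. The ratio of Tnc to Postn was 6.01, 6.73, 7.88 and 7.85 in the S. aureus libraries, 1.51, 1.53, 1.28 and 1.33 with A. faecalis, and 1.65, 3.74, 0.458 and 3.26 with vehicle. The A. faecalis libraries lay close together within the wide vehicle range. The ratio of Thbs1 to Fn1, both adhesive glycoproteins of the provisional matrix, was 2.49 to 3.61 with S. aureus, 0.814 to 1.07 with A. faecalis and 0.669 to 2.02 with vehicle. In the other 3 ratios S. aureus overlapped vehicle, and in Ctgf to Acta2 it overlapped A. faecalis as well. Thbs1 to Sparc was 1.341 to 3.59 with S. aureus and 0.564 to 1.02 with A. faecalis, where vehicle reached 2.38. Cyr61 to Tagln was 3.66 to 5.15 with S. aureus and 1.94 to 2.31 with A. faecalis, where vehicle reached 4.22. Ctgf to Acta2 was 0.527 to 0.819 with S. aureus, where A. faecalis reached 0.621 and vehicle 0.838.

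**Figure D4:**
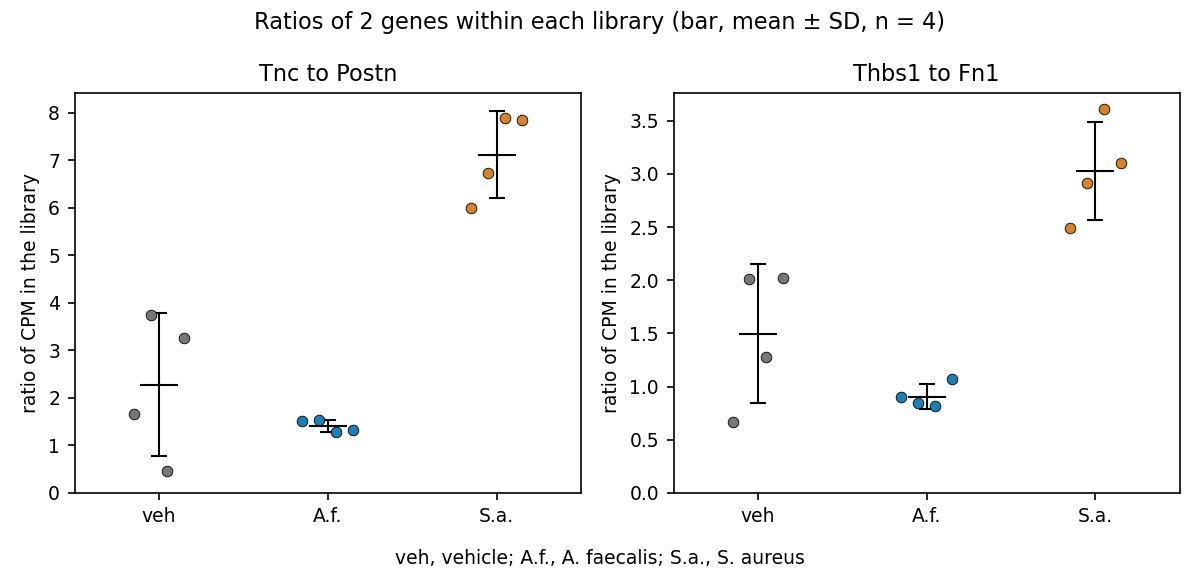
The 2 of 5 ratios in which S. aureus did not overlap the other groups, ratios of CPM of Tnc to Postn and of Thbs1 to Fn1 in each library (points; bars, mean ± SD, n = 4; linear axes from 0). The S. aureus points lie at 6.01 to 7.88 and 2.49 to 3.61, above all points of the other groups.

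Genes of the same processes were examined by list, for S. aureus against A. faecalis first. The counts stand beside 7.62% of all genes called higher and 5.06% lower between the bacteria, and 3.87% and 2.97% against vehicle, and a share near these is no result about a list. Of 12 receptors of provisional matrix proteins 2 rose: the integrin chains Itgav (log2 fold change 0.70, adjusted p = 0.016) and Itgb3 (0.64, adjusted p = 0.0229), which pair as a receptor of fibronectin, thrombospondin and CCN proteins. Leaving out A. faecalis 4 or S. aureus 3 ended the call of Itgav (adjusted p at most 0.0542). Leaving out A. faecalis 2, 3 or 4 or S. aureus 3 or 4 ended that of Itgb3 (at most 0.0708). Against vehicle 1 of the 12 rose, Itgb3 (0.79, adjusted p = 0.0193; up to 0.0636 without S. aureus replicates 3 or 4). The median of the list was 0.11 between the bacteria and 0.09 against vehicle.

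Of 20 further matricellular and related matrix genes 2 rose between the bacteria. Spp1, osteopontin, had 1023 ± 549 CPM with S. aureus and 280 ± 51.4 CPM with A. faecalis (log2 fold change 1.87, adjusted p = 0.0099), called in all 12 fits without 1 library. Wisp1, another CCN family gene, had 99.4 ± 22.5 and 38.9 ± 11.2 CPM (1.35, adjusted p = 0.0154; 0.0531 without A. faecalis replicate 3). Against vehicle 1 gene of this list fell. It was Tnxb, tenascin-X of mature dermis, the counterpart of Tnc in the same family, which averaged 11.1 ± 5.14 CPM in S. aureus wounds against 29.8 ± 8.68 CPM in vehicle wounds (-1.43, adjusted p = 0.027). Leaving out vehicle 1 or 3 or S. aureus 2, 3 or 4 ended the call (adjusted p at most 0.0879). The medians were 0.20 and 0.11.

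Of 15 genes for enzymes and chaperones that crosslink or process matrix 4 rose with S. aureus relative to A. faecalis. The other 11 did not pass, and over the list 14 log2 fold changes were above 0 with a median of 0.40. Tgm2, tissue transglutaminase, rose by 0.71 (adjusted p = 0.00524) and Loxl4, a relative of Lox, by 0.60 (adjusted p = 0.0107), both in all 12 fits without 1 library. Bmp1, the procollagen C-proteinase that also activates lysyl oxidase, rose by 0.56 (adjusted p = 0.0265) and the collagen chaperone Serpinh1 by 0.59 (0.0278). Leaving out A. faecalis 2, 3 or 4 or S. aureus 3 or 4 ended both calls (adjusted p at most 0.0887). Against vehicle 3 of the 15 rose (Tgm2, Bmp1 and Loxl4, by 0.64, 0.59 and 0.49; adjusted p = 0.0181, 0.0337 and 0.0419), with a median of 0.46. Tgm2 lost that call without S. aureus replicates 3 or 4, Bmp1 without A. faecalis 3 or S. aureus 2, 3 or 4, and Loxl4 without any library other than vehicle 4 and S. aureus 1 (up to 0.129).

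Smooth muscle contractile genes were less uniform. Of 12 genes 1 rose between the bacteria, Cald1, caldesmon, by 0.43 (adjusted p = 0.0315; up to 0.0947 without any 1 A. faecalis replicate other than 1 or any 1 S. aureus replicate). The list's median was -0.03. Against vehicle Des, the muscle intermediate filament desmin, rose by 0.56 (adjusted p = 0.0267) and Cald1 by 0.44 (adjusted p = 0.0462), while the median was -0.17. Leaving out vehicle 1 or S. aureus 2, 3 or 4 ended the call of Des (at most 0.0794). Cald1 held it only without vehicle replicate 1 or A. faecalis replicate 1, and was lost without any of the other 10 libraries (up to 0.131). Des is also a gene of skeletal muscle, and the summed level of 7 skeletal muscle markers was 844 to 992 CPM with S. aureus, 763 to 964 CPM with A. faecalis and 699 to 1230 CPM with vehicle.

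Of 18 genes of mechanosensitive transcription 2 rose between the bacteria: the TEAD factor Tead3 by 0.50 (adjusted p = 0.00645, in all 12 fits without 1 library) and Srf, serum response factor, by 0.33 (adjusted p = 0.0471). Srf held its call in 3 of those 12 fits, without vehicle replicates 1 or 3 or S. aureus replicate 1, and was lost in the other 9 (up to 0.137). In this list 16 of 18 log2 fold changes were above 0 (median 0.29). Against vehicle edgeR called 0 of the 18 and DESeq2 called 1 (median 0.04). An unadjusted p under 0.05 was found for 2 of the 18 and for 27% of all genes. The fibroblast list was split, with 6 of 12 log2 fold changes above 0 between the bacteria (median 0.12) and 5 of 12 against vehicle (median -0.11). Of its genes the platelet-derived growth factor receptors Pdgfrb and Pdgfra rose between the bacteria (by 0.62 and 0.50, adjusted p = 0.0030 and 0.0172), Pdgfrb in all 12 fits and Pdgfra in 9, those without A. faecalis 2, A. faecalis 4 or S. aureus 3 being the exceptions (at most 0.0548). Against vehicle Pdgfrb rose by 0.56 (adjusted p = 0.0114, all 12 fits), Thy1 by 0.49 (0.0334) and Pdgfra by 0.46 (0.0389), and Dpt, dermatopontin, fell by 0.97 (0.0472). Thy1 lost that call in 6 of the 12 fits (without vehicle 2, 3 or 4 or S. aureus 2, 3 or 4), Pdgfra in 8 (vehicle 2 or 3, A. faecalis 3 or 4 or any S. aureus) and Dpt in 9 (all but vehicle 2 and 4 and S. aureus 1), with adjusted p up to 0.13. In the comparison of A. faecalis with vehicle edgeR and DESeq2 each called 0 genes of these 6 lists. Of all genes they called only 2 and 122, so 0 is no result about a list. The genes with an unadjusted p under 0.05 were 2 of 20 matricellular relatives and 3 of 18 mechanosensitive genes, where 7.68% of all genes had one. The medians were 0.08 for the receptors, -0.19 for the matricellular relatives and -0.03 for the crosslinking enzymes. They were -0.13, -0.15 and -0.14 for the contractile, mechanosensitive and fibroblast genes.

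**Figure D5:**
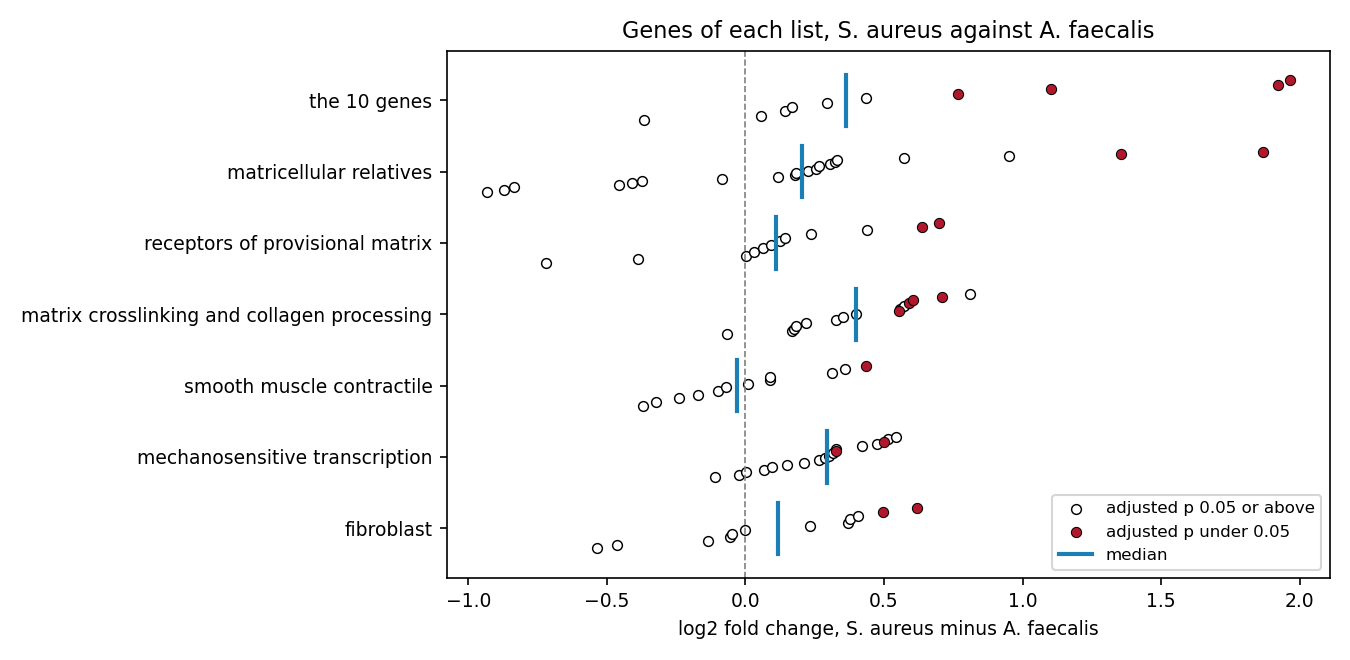
Log2 fold changes of S. aureus against A. faecalis for the 10 genes and the genes of 6 lists (points, filled for an adjusted p under 0.05; vertical bars, list medians). Tnc (1.96) and Thbs1 (1.92) lie farthest to the right, with Spp1 (1.87) of the matricellular relatives next to them, and 14 of 15 crosslinking and processing genes lie above 0.

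Markers of other cells differed between the same groups. The summed level of 7 neutrophil markers was 9361 to 14867 CPM with S. aureus, 1780 to 4212 CPM with A. faecalis and 718 to 8809 CPM with vehicle. Of these 5 rose between the bacteria (Retnlg, Ly6g, Cxcr2, S100a8 and S100a9, by log2 fold changes of 1.73 to 5.04), Retnlg and Ly6g in all 12 fits without 1 library. S100a9 kept its call only without vehicle replicates 3 or 4, S100a8 only in the 4 fits without a vehicle library, and Cxcr2 lost it without A. faecalis 1, 3 or 4 or S. aureus 2, 3 or 4 (adjusted p up to 0.125). Of 8 macrophage markers 4 fell (Emr1, Csf1r, C1qb and C1qa), with sums of 3799 to 4659 CPM with S. aureus and 5062 to 7538 CPM with A. faecalis. C1qa lost that call without vehicle 2, any A. faecalis or S. aureus 2 or 4 (up to 0.102). Against vehicle edgeR called 0 of the 7 neutrophil markers (DESeq2 3, unadjusted p under 0.05 in 5, and in 27% of all genes). Of the macrophage markers Emr1 fell by 1.07 (adjusted p = 0.0244; up to 0.0672 without S. aureus 2, 3 or 4). The part of these cells in the differences of Tnc, Thbs1, Cyr61 and Ctgf was not tested.

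The sum of 8 platelet markers was 234 to 348 CPM with S. aureus, 554 to 659 CPM with A. faecalis and 259 to 1051 CPM with vehicle. Of the 7 markers tested, 4 had log2 fold changes above 0 between the bacteria (median 0.14) and 5 against vehicle (median 0.07), and 1 passed in each comparison. That was Pf4, platelet factor 4, which fell between the bacteria by 1.08 on the log2 scale (adjusted p = 0.0178; 0.0541 at most, without A. faecalis replicate 2 or S. aureus replicate 2). Of 8 pericyte markers 1 rose (Ndufa4l2, 0.43, adjusted p = 0.0478), a call held in 2 of 12 fits without 1 library, those without vehicle replicates 1 or 3. The pericyte sum was 637 to 712 CPM with S. aureus, 494 to 822 CPM with A. faecalis and 531 to 1015 CPM with vehicle. Of 7 endothelial markers Emcn rose by 0.60 (adjusted p = 0.0216; up to 0.0733 without A. faecalis 2 or 4 or S. aureus 3 or 4), and the sum was 1361 to 1537 CPM against 950 to 1319 CPM. Fibroblast sums overlapped, at 20883 to 26332 CPM and 19298 to 23309 CPM. Adipocyte sums were 1154 to 1909 CPM with S. aureus and 1755 to 2782 CPM with A. faecalis, and of 7 markers edgeR called 0, DESeq2 0, and 0 had an unadjusted p under 0.05. Basal keratinocyte sums were 931 to 2376 and 720 to 1184 CPM, and 6 of 7 markers had log2 fold changes above 0 (median 0.28). The exception, Krt15, fell (-3.98, adjusted p = 0.00257, all 12 fits), and none of the other 6 passed. Against vehicle Pf4 (-1.04, adjusted p = 0.0334), the pericyte gene Higd1b (-1.14, 0.0269) and Krt15 (-4.23, 0.00791) fell, and Emcn (0.78, 0.016) and Pecam1 (0.40, 0.0438) rose. Of these Krt15 passed in all 12 fits without 1 library, and Emcn lost its call without S. aureus 3 or 4. Higd1b lost it without vehicle 1 or 3 or S. aureus 2, 3 or 4, Pf4 without vehicle 1 or 2, A. faecalis 3 or any S. aureus library, and Pecam1 without any vehicle library, A. faecalis 3 or 4 or S. aureus 2, 3 or 4 (adjusted p up to 0.129). For adipocyte markers edgeR called 0 against vehicle (DESeq2 4, unadjusted p under 0.05 in 6), and for skeletal muscle markers 0 in both comparisons (DESeq2 0 against vehicle and 1 between the bacteria, unadjusted p under 0.05 in 2 and 1). Of all genes 27% had an unadjusted p under 0.05 against vehicle and 28.2% between the bacteria. Between A. faecalis and vehicle edgeR and DESeq2 called 0 genes of any of these 8 marker lists, and 2 and 122 of all genes. An unadjusted p under 0.05 was found for 5 of 7 basal keratinocyte, 3 of 8 macrophage and 2 of 7 neutrophil markers. It was also found for 1 of 7 adipocyte and 1 of 8 pericyte markers, where 7.68% of all genes had one. No marker of these lists was at 0 in all libraries. The part of platelets, pericytes, endothelium, adipocytes, muscle and keratinocytes in the members' differences was not tested.

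The genes whose levels across the 12 libraries were most like each member were found by the root mean square difference of log2 CPM, after each gene's own mean was subtracted, among 13887 genes with a mean of at least 1 CPM. For Tnc they were Mmp3, stromelysin-1, and Il13ra2, a decoy receptor of interleukin-13 (both 0.30, where the median over all genes was 1.04). For Thbs1 they were Cyp4f18 and the metalloprotease gene Adam8 (both 0.20, median 1.05). For Cyr61 they were Apold1, an early response gene of endothelium, and Fgf7, keratinocyte growth factor (both 0.19, median 0.63). Among the members, Ctgf and Cyr61 were each nearest to the other (0.25). The member nearest to Thbs1 was Tnc (0.54), while the member nearest to Tnc was Cyr61 (0.49). Acta2 was nearest to Smtn, smoothelin of smooth muscle (0.08), and to Myo10 (0.09, median 0.32). Sparc was nearest to Fkbp9 and Tpst1 (both 0.07), Postn to Zfp704 and the glypican gene Gpc6 (0.11 and 0.12) and Tagln to Utp14b and Nipa1 (both 0.06). Lox was nearest to Hist1h2ae and Depdc1a (0.08 and 0.10), Fn1 to Mif and Pitpnc1 (0.16 and 0.19) and Ctgf to Peg12 and Bdh2 (0.20 and 0.21). A member that varies little has near neighbours by this measure whatever their role. This holds for Tagln, Sparc and Acta2, whose own spread was 0.21, 0.20 and 0.23.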

How the data were processed

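Total RNA of wounded skin was sequenced after removal of ribosomal RNA, with 4 libraries per group per the labels. The labels do not say that the libraries of a group are separate mice, so p-values measure only the spread between these samples, which may be technical. The authors deposited estimated counts per gene. Kallisto 0.48.0, FastQC 0.12.1, R 4.1.3, DESeq2 1.34.0 and GRCm39 are named per the submitters' processing notes, with no role given. How transcripts were summed to genes was not given in the sources used here, and kallisto divides shared reads among similar transcripts.

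Estimated counts were rounded. One entry without a gene name (0.00909% to 0.0151% of a library) was left out. EdgeR 4.0.16 (R 4.3.3, limma 3.58.1) fitted a mean per group over 12 libraries, with TMM scaling, filterByExpr (minimum count 10, total 15) and the robust quasi-likelihood test (two-sided). Intervals are 95% intervals of the fitted log2 fold change. Sums of lists are counts of all members over the scaled library size. Replicates of a group had a chi-square per degree of freedom from 28.0 to 460 between them, and no pair looked like 1 library deposited under 2 names. Alternatives were DESeq2 size factors, DESeq2 1.42.0 (Wald test), no low-count filter, only the groups compared, a replicate block, and each library left out. The script was tested on simulated counts with the same spread for every gene. That test does not cover genes that vary as widely as Tnc and Thbs1 did with vehicle.

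The members and lists were chosen with earlier results of these data known. Of the 158 list entries, members included, all were found, 6 under an older symbol. The naming rule took the members, up to 3 called genes per list and comparison, and the 2 nearest genes of each member; Serpinh1, Dpt, C1qa, S100a8, S100a9, Acta1, Actg2, Krt14 and Col1a1 were named outside it, after their values were seen. Promoter windows come from RefSeq (GRCm38.p6), another build than that of the counts.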

Additional observations from a re-analysis of the deposited data

How the results depend on the processing

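Of the 3 counts of called members, that of A. faecalis against vehicle stayed 0 in every alternative run. For S. aureus against vehicle, 1 with edgeR, it was 2 with DESeq2 size factors (Tnc and Lox), 4 with the DESeq2 Wald test (Tnc, Thbs1, Lox and Cyr61), 0 with no filter on low counts, 0 with only the 2 groups fitted, and 0 to 2 with 1 library left out. For S. aureus against A. faecalis, 4 with edgeR, it was 2 to 5 with 1 library left out. It was 2 (Tnc and Cyr61) without A. faecalis replicate 3 or S. aureus replicate 3. Ctgf alone was lost without A. faecalis replicates 2 or 4 or S. aureus replicates 1 or 4. The other kinds of alternative run gave 4 or 5. The cause was not tested. Over all genes, edgeR called 1246 genes for S. aureus against vehicle, against 2854 with the DESeq2 Wald test, 350 with only the 2 groups and 260 to 1750 with 1 library left out. Between the bacteria it called 2310, against 3459 with only the 2 groups and 1313 to 3457 with 1 library left out, and for A. faecalis against vehicle 2, against 122 with DESeq2 and 2 to 10 with 1 library left out. Replicate numbers are not stated to pair mice: the deviations of same-numbered libraries from their group means correlated by -0.21 to 0.18 (mean 0.02, over 0.1 in 3 of 12 pairs). With the replicate number as a block the count against vehicle was 2 (Thbs1 and Lox, not Tnc) and that between the bacteria stayed 4, with Lox in place of Ctgf.

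Signs turned only for values near 0, when 1 library was left out. The log2 fold changes of A. faecalis against vehicle then ranged from -0.255 to 0.0550 for Postn, from -0.119 to 0.0868 for Acta2 and from -0.0512 to 0.178 for Lox. That of Sparc with S. aureus against vehicle ranged from -0.135 to 0.0877, and those between the bacteria from -0.0224 to 0.297 for Fn1 and from -0.0300 to 0.146 for Tagln. With at least 1470 counts per member and library, replicates of a group differed by more than counting error, so the spread between libraries and not depth sets the precision.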

Other observations

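The ranges of these genes were mostly narrower in the bacterial groups than in the vehicle group. The ratio of the highest to the lowest library was smaller with A. faecalis than with vehicle for 9 of 10 members, Lox being the exception, and smaller with S. aureus for all 10. Without vehicle replicate 3 these counts were 5 and 7 of 10. Spread was not tested. Within the S. aureus group Thbs1 varied most (2.39 times between the lowest and the highest library) and Tagln least (1.11 times).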
